A study of Mus musculus with 6 samples.

Results

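The genes described here are 53 genes of the G1/S transition and of DNA replication, chosen by symbol from the 19933 genes measured. The comparison is of jejunal epithelial cells from mice with and without an inducible MSI2 transgene. Each gene was read by the probe set with the highest mean, and all 53 were measured, with no filter on low values. MSI2 is a Musashi-family protein that binds messenger RNAs. The 3 MSI2-induced mice (TRE-MSI2::R26-M2rtTA, titled transgenic) carried a tetracycline-responsive MSI2 transgene together with the M2rtTA transactivator, and the 3 control mice (R26-M2rtTA) carried the transactivator alone. All 6 mice drank doxycycline for 24 hours, so both groups share the transactivator and the drug. The transactivator sits at the Rosa26 locus, which is active in most cell types, so induction was not limited to the epithelium by its driver. Strain and age are not given in the sources used here. Each mouse gave 1 Affymetrix Gene 1.0 ST array, the labels call the arrays biological replicates, and precision is limited by their number. Values are log2 expression, on which 1 unit is a factor of 2, and they can be compared between arrays for 1 gene but not between genes.

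Cells in G1 commit to a new cycle when D-type cyclins with Cdk4 or Cdk6, and then E-type cyclins with Cdk2, phosphorylate the retinoblastoma protein and its relatives, the pocket proteins. This frees E2F transcription factors, which drive genes for origin licensing, DNA synthesis and nucleotide supply, while the late E2Fs, E2f7 and E2f8, shut the same genes down again. In the small intestine these genes are used mainly by the dividing cells of the crypts.

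The question the comparison answers is which of these transcripts differ 1 day after induction, and it was tested with limma over all 19933 genes with Benjamini-Hochberg adjustment and a threshold of 0.05 on the adjusted p. Of the 53 genes, 1 rose in the MSI2-induced arrays, the G1 kinase gene Cdk6, where 8.97% of all genes rose. Another 10 fell, where 9.65% of all genes fell. These were the pocket protein gene Rb1, the E2F genes E2f1, E2f2 and E2f8, the cyclin genes Ccnd1 and Ccne1, the CDK inhibitor gene Cdkn2c, the DNA polymerase gene Pold1, the DNA ligase gene Lig1 and the thymidine kinase gene Tk1. The other 42 did not pass, 22 with a higher and 20 with a lower mean in the MSI2-induced arrays. Over the 53 genes the median log2 difference, MSI2-induced minus control, was -0.07, beside 0.02 over all genes. In 1 gene the MSI2-induced arrays all lay above the controls, where 19.5% of all genes did, and in 17 they all lay below, where 17.5% of all genes did. All values of the 53 genes were above the range of 4.07 to 5.06 in which Xist and Y-linked genes lay in animals that lack those transcripts. The lowest was 5.83. That range comes from probe sets of other genes, so lying above it does not show that a transcript was detected.

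**Figure D1:**
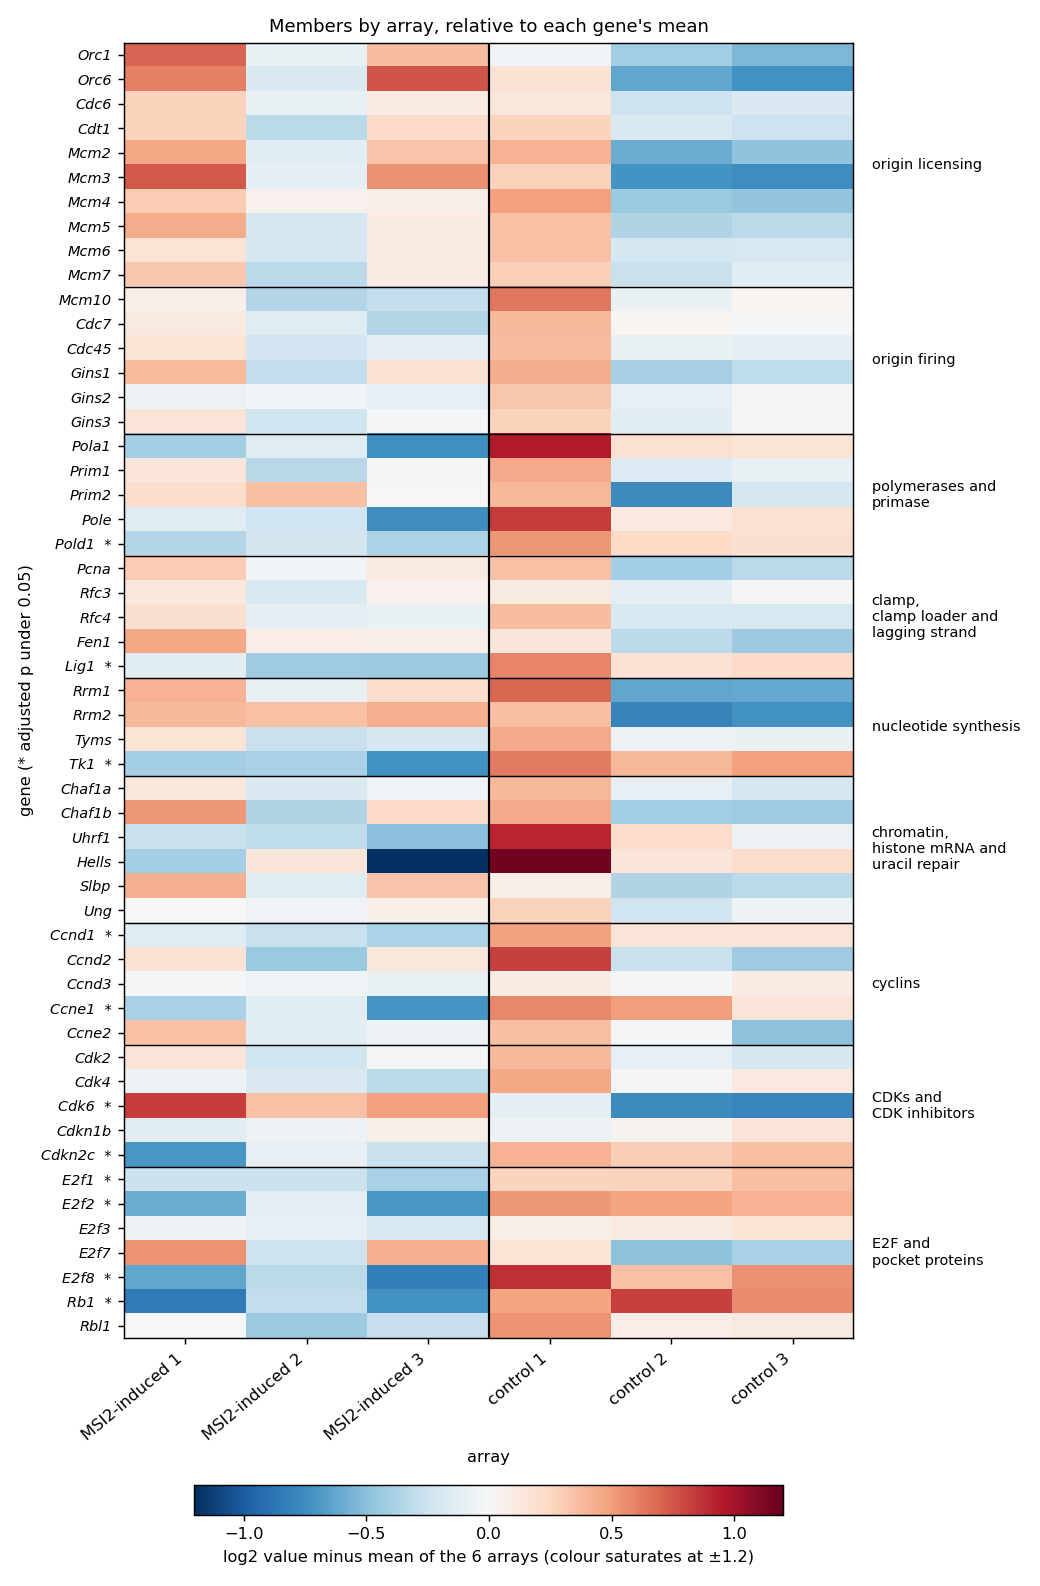
Log2 value of each of the 53 genes (rows, grouped by role) in each array (columns, MSI2-induced 1 to 3 and then control 1 to 3) minus the gene's mean over the 6 arrays. Control 1 is the highest of the 3 controls in 48 of the 53 rows, while in 6 of the 7 E2F and pocket protein rows the groups do not overlap.

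The array labelled control 1 stood apart from the other controls, and this touches most results below. Across all genes it correlated with control 2 and control 3 by 0.978 and 0.979, while controls 2 and 3 correlated by 0.996. The MSI2-induced arrays correlated with each other by 0.983 to 0.991. Among the 53 genes it held the highest control value in 48 (90.6%, against 39.2% of all genes) and the highest of all 6 values in 33 (62.3%, against 15.2%). Its median excess over the mean of controls 2 and 3 was 0.52 over the 53 genes and -0.01 over all genes. The check of the labels was mixed. Msi2 itself read 11.23, 10.58 and 11.44 in the MSI2-induced arrays, against 11.30, 9.53 and 9.32 in controls 1 to 3, so its level in control 1 lay among the MSI2-induced values and the difference did not pass (adjusted p = 0.257). Its paralog Msi1 separated the labels, at 13.44, 12.82 and 13.53 in the MSI2-induced arrays, against 7.20, 7.97 and 7.62 in the controls. All directions here are therefore between the arrays labelled transgenic, called MSI2-induced, and those labelled control. For those of the 53 genes whose call changed without control 1, the fit without it is given beside the main one. The plot of differences further below shows both fits for all 53.

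Markers of some cell types also differed between the groups. Those named here as passing were picked after their values were seen. Of 6 pan-epithelial markers 2 rose, where 8.97% of all genes did, and none fell. Krt18 rose by 1.47 and Cdh1 by 0.32 (limma adjusted p = 0.00221 and 0.0432). In 3 all MSI2-induced arrays lay above all controls, where 19.5% of all genes did. The median log2 difference of the 6 was 0.10. Their summed level, on the linear scale as all summed levels here, was 43802 to 46406 in the MSI2-induced arrays and 38508 to 39540 in the controls. Such a sum weighs bright markers most. Cdh1 did not pass with the replicate block (adjusted p = 0.0718) or in 5 of the 6 fits with 1 array left out. Epcam, an adhesion protein of epithelia, lay between 12.60 and 12.87 in all 6 arrays. Of 11 measured T cell and intraepithelial lymphocyte markers, 10 fell (90.9%, where 9.65% of all genes fell), with a list median of -1.54. Their summed level was 968 to 2204 in the MSI2-induced arrays and 4951 to 7906 in the controls. Cd3d, Cd2 and Cd160 had values in the dim range named above in at least 1 MSI2-induced array, and the other 8 markers had none in any array. Of 6 crypt stem cell markers 3 fell, Ascl2, Axin2 and Olfm4 (50%, where 9.65% of all genes fell), with a median of -0.99. With the replicate block 4 fell (13.1% of all genes). The summed level of the 6 was 2048 to 2453 in the MSI2-induced arrays and 7434 to 8560 in the controls. Single values of this list ran from 5.44 to 12.68, so its brightest marker weighs most in the sum. Of the 6, 1 had a higher mean, by 0.29. Of 10 enterocyte markers 1 fell, Vil1 (10%, where 9.65% of all genes fell), with a median of -0.81. With the replicate block 8 of the 10 fell (13.1% of all genes), and without control 1, 2 did (14.4%). Their summed level was 33649 to 72755 in the MSI2-induced arrays and 51785 to 100806 in the controls. Of 6 enteroendocrine markers 3 fell, Chgb, Gcg and Neurog3 (50%, where 9.65% of all genes fell). Each passed in 2 of the 6 fits with 1 array left out. In 4 all MSI2-induced arrays lay below all controls, where 17.5% of all genes did, and the list median was -0.80. Their summed level was 1354 to 3599 in the MSI2-induced arrays and 3204 to 4172 in the controls. None of 5 measured goblet cell markers passed, 3 were lower at an unadjusted p under 0.05, and their median was -0.69. With the replicate block 2 of the 5 fell (13.1% of all genes), and likewise 2 without control 1 (14.4%). Their summed level was 14228 to 29273 in the MSI2-induced arrays and 22833 to 40099 in the controls. None of 5 Paneth cell markers passed (median -0.13), nor any of 4 measured tuft cell (-0.30) or 5 measured B and plasma cell markers (-0.03). Likewise none passed of 6 fibroblast (0.06), 5 endothelial (-0.05) and 5 smooth muscle markers (0.07). Of 6 myeloid markers 1 rose (8.97% of all genes did), with a median of 0.12. The B cell, myeloid, fibroblast and endothelial lists held values down to 4.25, 4.47, 3.72 and 4.56, in or below the dim range. In bulk RNA, fewer cells of a type and less RNA per cell cannot be told apart, and the part of these shifts in the results on the 53 genes was not tested.

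Promoters were examined for the letters that E2F factors are known to bind, since many of the 53 genes are textbook E2F targets. RefSeq gave windows from 250 bases before to 50 after the annotated start (GRCm38.p6) for 44 of the 53 genes, and these were searched on both strands for TTTCGCGC, TTTGGCGC and TTTCCCGC. At least 1 of the 3 was found in 19 of the 44 (43.2%), against 573 of 27025 genes in the table (2.12%). Singly, TTTCGCGC was found in 18.2% of the 44 and 0.374% of all genes, TTTGGCGC in 13.6% and 0.585%, and TTTCCCGC in 22.7% and 1.24%. The letters were not confined to genes that differed between the groups. They were found in 3 of 8 genes that fell and have a window (37.5%) and in 16 of 35 that did not pass (45.7%). The CHR element TTTGAA, known from genes of the late cell cycle, was found in 18.2% of the 44 and 20.2% of all genes. A match is a run of letters and not evidence of binding.

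Shown here are the 3 promoters with a match among the genes that fell (E2f2, Lig1, Pold1), the promoters of the licensing genes Orc1 and Mcm3, which had higher means, and that of Cdk6, which rose and has no match. Each is written 5′ to 3′ along its gene's strand, with matches in capitals, and a match on the opposite strand reads as its reverse complement.
E2f2 chr4:136172024-136172323 plus strand: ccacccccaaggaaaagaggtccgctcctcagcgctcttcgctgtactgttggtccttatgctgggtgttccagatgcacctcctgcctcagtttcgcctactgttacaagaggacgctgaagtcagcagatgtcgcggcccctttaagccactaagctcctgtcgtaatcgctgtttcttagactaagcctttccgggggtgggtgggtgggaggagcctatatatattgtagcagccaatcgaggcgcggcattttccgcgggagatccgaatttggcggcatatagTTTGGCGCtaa
Lig1 chr7:13278576-13278875 plus strand: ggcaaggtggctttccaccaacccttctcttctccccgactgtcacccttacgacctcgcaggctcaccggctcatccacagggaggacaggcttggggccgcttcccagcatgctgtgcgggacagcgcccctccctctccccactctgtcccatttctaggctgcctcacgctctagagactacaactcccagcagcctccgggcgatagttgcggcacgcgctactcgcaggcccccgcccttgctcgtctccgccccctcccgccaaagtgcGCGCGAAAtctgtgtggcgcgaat
Pold1 chr7:44548766-44549065 minus strand: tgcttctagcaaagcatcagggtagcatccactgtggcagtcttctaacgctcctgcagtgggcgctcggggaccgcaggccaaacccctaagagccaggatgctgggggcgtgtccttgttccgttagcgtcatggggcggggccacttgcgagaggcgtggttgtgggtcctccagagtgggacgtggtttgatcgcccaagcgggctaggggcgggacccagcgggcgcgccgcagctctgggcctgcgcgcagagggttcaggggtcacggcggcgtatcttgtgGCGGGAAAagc
Orc1 chr4:108579204-108579503 plus strand: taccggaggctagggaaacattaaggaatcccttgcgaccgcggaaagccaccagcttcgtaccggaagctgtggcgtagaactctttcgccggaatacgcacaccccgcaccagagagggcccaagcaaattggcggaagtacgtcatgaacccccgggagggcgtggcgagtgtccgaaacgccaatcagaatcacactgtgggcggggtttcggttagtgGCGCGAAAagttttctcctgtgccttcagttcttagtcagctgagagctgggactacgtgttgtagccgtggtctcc
Mcm3 chr1:20820263-20820562 minus strand: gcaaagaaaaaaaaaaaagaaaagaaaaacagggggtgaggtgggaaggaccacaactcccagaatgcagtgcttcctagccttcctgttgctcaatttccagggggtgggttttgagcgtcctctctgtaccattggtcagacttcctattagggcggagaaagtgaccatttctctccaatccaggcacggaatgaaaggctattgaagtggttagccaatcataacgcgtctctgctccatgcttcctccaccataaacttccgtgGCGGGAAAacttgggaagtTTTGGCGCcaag
Cdk6 chr5:3343643-3343942 plus strand: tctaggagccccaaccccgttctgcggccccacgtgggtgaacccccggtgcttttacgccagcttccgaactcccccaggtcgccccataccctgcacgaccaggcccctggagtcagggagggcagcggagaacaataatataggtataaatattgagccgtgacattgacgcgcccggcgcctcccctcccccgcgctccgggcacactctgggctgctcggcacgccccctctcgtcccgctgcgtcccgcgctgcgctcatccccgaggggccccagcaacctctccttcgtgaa
The E2f2 and Mcm3 windows hold TTTGGCGC downstream of the start on the gene's own strand. In Lig1 and Orc1 the match is to TTTCGCGC on the opposite strand, downstream of the start in Lig1 and upstream of it in Orc1. Pold1 and Mcm3 hold TTTCCCGC on the opposite strand, in both downstream of the start. The matches of the 3 genes that fell all lay downstream of the start, and so did matches in Cdt1, Mcm3, Mcm7 and Rfc3, which did not pass.

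**Figure D2:**
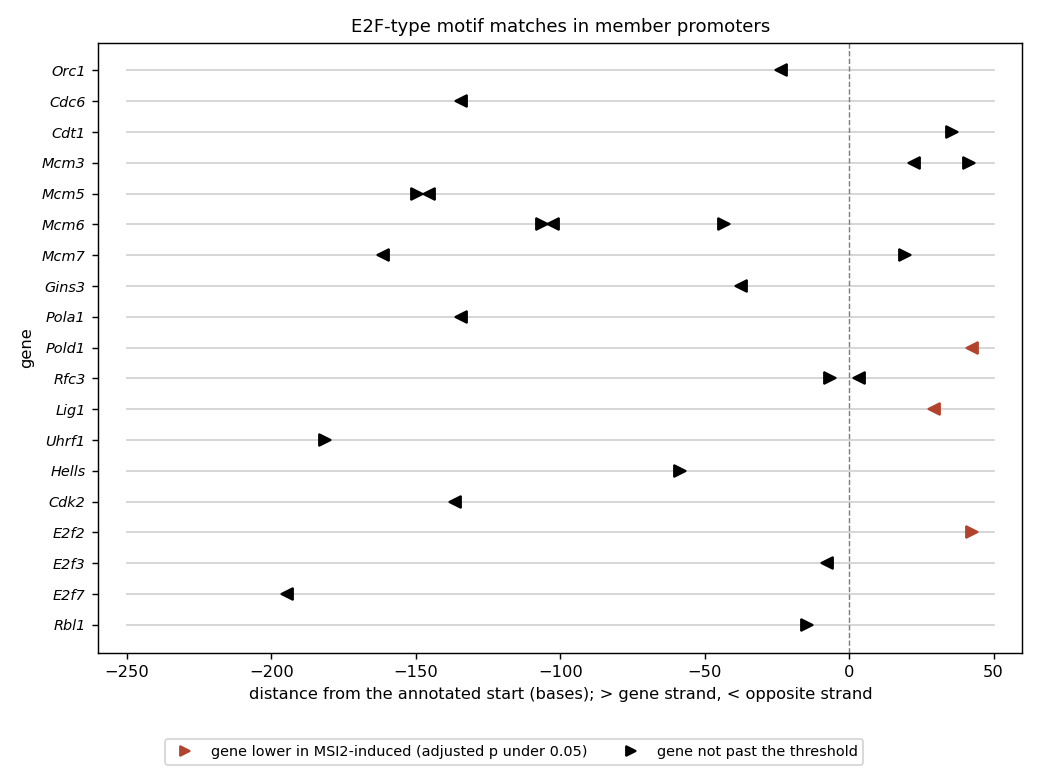
Matches to the 3 E2F-type words in the promoter windows of the 19 genes that hold one, by distance in bases from the annotated start (dashed line). Triangles point along the strand of the match, and red ones mark Pold1, Lig1 and E2f2, the 3 genes that fell. Uhrf1 and Lig1 are drawn from the window that holds the match. In Mcm5 and Mcm6 a pair of matches on opposite strands overlaps.

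The E2F and pocket protein genes were the group of members with the most falls. Of 7 measured, 4 fell, where 9.65% of all genes did, and none rose. In 6 all MSI2-induced arrays lay below all controls, where 17.5% of all genes did. The median log2 difference was -0.60, beside 0.02 over all genes. The median excess of control 1 over controls 2 and 3 was 0.07 in this group, against 0.52 over the 53 genes. In the same arrays the T cell and crypt stem cell markers had medians of -1.54 and -0.99.

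Rb1, which encodes the retinoblastoma protein that holds E2F factors inactive, read 9.03, 9.58 and 9.14 in the MSI2-induced arrays, against 10.35, 10.69 and 10.44 in the controls. The groups were separated by more than either group spread, and MSI2-induced 2 was the highest of its group as control 2 was of the controls. The log2 difference was -1.24 (SE 0.17, limma adjusted p = 0.00862), a 2.37-fold higher level in control. Rb1 passed in all 6 fits that left out 1 array. Rbl1, which encodes the pocket protein p107, read 9.42, 8.98 and 9.14 in the MSI2-induced arrays, against 9.96, 9.50 and 9.53 in the controls. These groups did not overlap, but replicate 1 was the highest of each, and the difference of -0.48 (SE 0.17) did not pass, with an adjusted p of 0.107, or of 0.0182 when the replicate number was a block.

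E2f1, an activating E2F, had the tightest values of the E2F genes that fell. It read 6.73, 6.73 and 6.59 in the MSI2-induced arrays, against 7.26, 7.26 and 7.35 in the controls, a log2 difference of -0.60 (SE 0.08, limma adjusted p = 0.00713). Control 1 lay level with control 2, and the call held in all 6 fits that left out 1 array. E2f2, another activator, read 7.10, 7.59 and 7.005 in the MSI2-induced arrays, against 8.22, 8.17 and 8.12 in the controls. MSI2-induced 2 lay closest to the controls, and the difference was -0.94 (SE 0.16, limma adjusted p = 0.0157). This call was lost without MSI2-induced 1, MSI2-induced 3, control 2 or control 3, at adjusted p values of 0.0584 to 0.0663. E2f3, the third activator of the family, read 8.41, 8.38 and 8.29 in the MSI2-induced arrays, against 8.55, 8.58 and 8.64 in the controls. It lay lower in all 3 MSI2-induced arrays by a small margin, and the difference of -0.23 (SE 0.07) did not pass (adjusted p = 0.0755). A dimmer probe set of E2f3 differed by -0.03.

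The late E2F genes had differences of opposite sign, of which 1 passed. E2f8 read 7.60, 7.90 and 7.40 in the MSI2-induced arrays, against 9.10, 8.58 and 8.77 in the controls. All MSI2-induced values lay below all controls, by -1.18 in the means (SE 0.18, limma adjusted p = 0.0114), and the call was lost only without control 3 (adjusted p = 0.0527). E2f7, which encodes the other late repressor, read 8.56, 7.77 and 8.45 in the MSI2-induced arrays, against 8.19, 7.53 and 7.63 in the controls. MSI2-induced 2 lay below control 1, and the difference of 0.48 (SE 0.27) did not pass (adjusted p = 0.276).

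**Figure D3:**
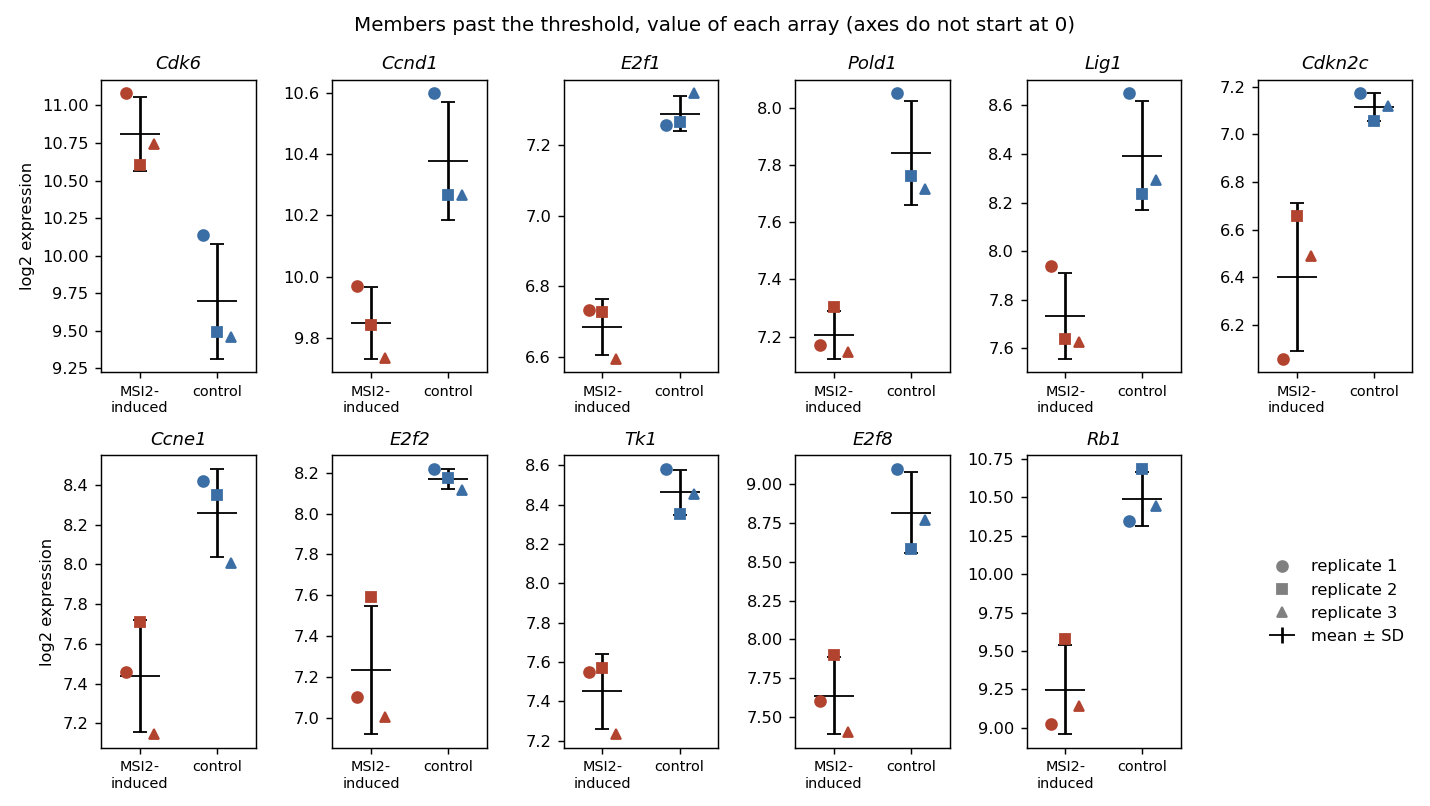
Log2 expression of the 11 genes that passed in limma, 1 panel each, in the MSI2-induced arrays (left of each panel) and the control arrays (right), with symbols for replicates 1 to 3 and bars for the mean ± SD. The groups do not overlap in any panel, Cdk6 is higher and the other 10 are lower in the MSI2-induced arrays.

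Of the 5 cyclin genes, 2 fell, where 9.65% of all genes did, and none rose. In 3 all MSI2-induced arrays lay below all controls, where 17.5% of all genes did. The median difference of the 5 was -0.11. Ccnd1, which encodes cyclin D1, read 9.97, 9.84 and 9.73 in the MSI2-induced arrays, against 10.60, 10.27 and 10.27 in the controls. Every MSI2-induced value lay below every control, and control 1 was the highest. The difference was -0.53 (SE 0.12, limma adjusted p = 0.0334). Cyclin E1, which activates Cdk2 at the start of S phase, is encoded by Ccne1, which read 7.46, 7.71 and 7.14 in the MSI2-induced arrays, against 8.42, 8.35 and 8.01 in the controls. Here replicate 3 was the lowest of each group and the groups did not overlap, with a difference of -0.82 (SE 0.18, limma adjusted p = 0.0285).

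The other cyclin genes did not pass. Ccnd2 read 11.56, 10.95 and 11.53 in the MSI2-induced arrays, against 12.21, 11.12 and 10.96 in the controls, where control 1 was the highest array of all. The difference was -0.08 (SE 0.36, adjusted p = 0.908) and 0.31 without control 1 (adjusted p = 0.353). Ccnd3 read 7.73, 7.71 and 7.67 in the MSI2-induced arrays, against 7.85, 7.74 and 7.86 in the controls. Its groups did not overlap, but they lay only -0.11 apart (SE 0.07, adjusted p = 0.359). Cyclin E2, from Ccne2, was at 7.88, 7.39 and 7.47 in the MSI2-induced arrays, against 7.89, 7.51 and 7.03 in the controls, an overlap throughout (difference 0.10, adjusted p = 0.831). The D-type and the E-type cyclin genes thus each held 1 gene that fell beside others that did not pass, and the difference between them was not tested. With 1 array left out the call of Ccnd1 was lost in 5 of the 6 fits, all but that without control 1, at adjusted p values of 0.0646 to 0.118. That of Ccne1 was lost without MSI2-induced 1, MSI2-induced 3, control 2 or control 3, at 0.0566 to 0.105. When sex was a block, Ccnd1 did not pass either (adjusted p = 0.0769).

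Among the kinases, Cdk6 was the 1 member that rose. It read 11.08, 10.60 and 10.74 in the MSI2-induced arrays, against 10.14, 9.49 and 9.46 in the controls. Control 1 was the highest control and still lay below every MSI2-induced array. The difference was 1.11 (SE 0.22, limma adjusted p = 0.0222), a 2.16-fold higher level, and it was 1.33 without control 1 (adjusted p = 0.00454). The related G1 kinase gene Cdk4 read 11.43, 11.32 and 11.16 in the MSI2-induced arrays, against 11.96, 11.46 and 11.61 in the controls. Its groups did not overlap, yet the difference of -0.38 (SE 0.15) did not pass (adjusted p = 0.135). Cdk2, the partner of E-type cyclins, had 9.02, 8.62 and 8.84 in the MSI2-induced arrays, against 9.25, 8.76 and 8.66 in the controls. These overlapped, with a difference of -0.07 (SE 0.19, adjusted p = 0.854). The call of Cdk6 was lost without MSI2-induced 1, MSI2-induced 3, control 2 or control 3 (adjusted p = 0.0725 to 0.0868), and Cdk6 had 0.0528 when sex was a block.

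Of the CDK inhibitors, Cdkn2c encodes p18, which binds Cdk4 and Cdk6. It read 6.06, 6.66 and 6.49 in the MSI2-induced arrays, against 7.17, 7.06 and 7.12 in the controls, which lay close together. The MSI2-induced arrays spread more and all lay lower, by -0.71 (SE 0.16, limma adjusted p = 0.0305). Without MSI2-induced 3, control 2 or control 3 this call was lost (adjusted p = 0.0907 to 0.106), as it was when sex was a block (adjusted p = 0.0742). Cdkn1b, which encodes the Cdk2 inhibitor p27, read 9.66, 9.73 and 9.87 in the MSI2-induced arrays, against 9.74, 9.84 and 9.95 in the controls. These values interleaved, and the difference of -0.09 (SE 0.09) did not pass (adjusted p = 0.578).

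Origin licensing loads the Mcm2 to Mcm7 helicase onto origins through the origin recognition complex, Cdc6 and Cdt1. None of the 10 licensing genes passed, but all 10 had a higher mean in the MSI2-induced arrays, where 10812 of all 19933 genes did. Their median difference was 0.25 beside 0.02 over all genes. The means of Mcm6 and Mcm7 turned lower in some of the fits with 1 array left out. Control 1 was the highest control in all 10 (39.2% of all genes), with a median excess over controls 2 and 3 of 0.62. MSI2-induced 2 was the lowest of its group in all 10 (43.9% of all genes). The 10 enterocyte markers ran the other way. For them control 1 was the highest control in 0, with a median of -0.87 against controls 2 and 3, and MSI2-induced 2 was the lowest of its group in 0. For the 5 measured goblet cell markers the control 1 median was -0.85. Whether these patterns are linked was not tested. Without control 1 the median difference of the licensing genes was 0.53. In that fit 4 of the 10 licensing genes rose, Mcm2, Mcm3, Mcm4 and Orc6, where 13.4% of all genes rose.

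Mcm2 showed the pattern in full. It read 10.001, 9.40 and 9.88 in the MSI2-induced arrays, against 9.96, 8.94 and 9.05 in the controls. Control 1 lay with the MSI2-induced arrays, while controls 2 and 3 lay below all of them. The difference was 0.45 (SE 0.30, adjusted p = 0.38) with control 1 and 0.77 without it (adjusted p = 0.0344). Mcm3 read 8.94, 8.10 and 8.75 in the MSI2-induced arrays, against 8.48, 7.49 and 7.46 in the controls. Replicate 1 was high in both groups, and the difference of 0.79 (SE 0.35) did not pass (adjusted p = 0.174). It passed with the replicate block (adjusted p = 0.0373) and without control 1 (adjusted p = 0.0254). Mcm4 read 9.03, 8.78 and 8.80 in the MSI2-induced arrays, against 9.23, 8.28 and 8.26 in the controls. Here control 1 was the highest of all arrays and the other controls the lowest, with a difference of 0.28 that was 0.60 without control 1 (adjusted p = 0.546 and 0.0129).

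The remaining helicase genes overlapped between the groups and did not pass with 6 arrays, with the replicate block or without control 1. Mcm6 read 9.46, 9.08 and 9.38 in the MSI2-induced arrays, against 9.64, 9.07 and 9.10 in the controls, a difference of 0.04 (SE 0.19, adjusted p = 0.921). Mcm5 differed by 0.22 (SE 0.25) and Mcm7 by 0.07 (SE 0.21). Orc1, the ATPase subunit of the origin recognition complex, read 7.29, 6.51 and 6.95 in the MSI2-induced arrays, against 6.55, 6.17 and 6.04 in the controls. Only MSI2-induced 2 lay within the control range, just below control 1. The difference of 0.66 (SE 0.23) did not pass (adjusted p = 0.0975), though it did with the replicate block (adjusted p = 0.0258), with array weights and without MSI2-induced 2 (adjusted p = 0.0338). Orc6 differed by 0.79 (SE 0.33, adjusted p = 0.159) and by 1.07 without control 1 (adjusted p = 0.0419). The loading factors Cdc6 and Cdt1 differed by 0.20 and 0.11, and neither passed.

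Origin firing, in which Cdc7 kinase, Mcm10, Cdc45 and the GINS complex turn the loaded helicase on, was read by 6 genes. Of these none passed, 1 had a higher mean, and the median was -0.12. Mcm10 read 8.16, 7.75 and 7.82 in the MSI2-induced arrays, against 8.73, 8.03 and 8.13 in the controls. Within each replicate number the MSI2-induced value was the lower one, and the difference of -0.38 (SE 0.21) passed with the replicate block (adjusted p = 0.0484) but not without it (adjusted p = 0.277). Cdc7, Cdc45, Gins2 and Gins3 lay between -0.26 and -0.07, and Gins1 at 0.17. Control 1 was the highest of all 6 arrays for every gene of this group, where it was for 15.2% of all genes.

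Of 5 polymerase and primase genes, Pold1 fell, where 9.65% of all genes did, and none rose. In 3 all MSI2-induced arrays lay below all controls, where 17.5% of all genes did, and the median of the 5 was -0.64. Pold1, the catalytic subunit of polymerase delta, which copies the lagging strand, read 7.17, 7.30 and 7.15 in the MSI2-induced arrays, against 8.05, 7.76 and 7.72 in the controls. The MSI2-induced values were tight and all lower, by -0.64 (SE 0.11, limma adjusted p = 0.0168). Its call was lost without MSI2-induced 1, MSI2-induced 3 or control 2 (adjusted p = 0.0578 to 0.0726). Pole, which encodes the catalytic subunit of polymerase epsilon for the leading strand, read 7.84, 7.75 and 7.25 in the MSI2-induced arrays, against 8.83, 8.11 and 8.17 in the controls. It lay lower in all 3, by -0.75 (SE 0.25), and did not pass (adjusted p = 0.0843). It passed with the replicate block (adjusted p = 0.0244) and with array weights. Pola1, the catalytic subunit of polymerase alpha, read 7.05, 7.31 and 6.72 in the MSI2-induced arrays, against 8.42, 7.64 and 7.63 in the controls. It too lay lower in all 3 and did not pass, with a difference of -0.87 (SE 0.26, adjusted p = 0.0674). It passed with the replicate block (adjusted p = 0.0406), with array weights, and when genes with a mean under 6 or under 7 were left out. Of the primase genes that work with Pola1, Prim1 differed by -0.14 and Prim2 by 0.38, and neither passed.

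Of the genes for the sliding clamp, its loader and the joining of lagging-strand fragments, Lig1 fell and the other 4 did not pass. Of all genes 9.65% fell. Lig1, the ligase that seals the fragments, read 7.94, 7.64 and 7.63 in the MSI2-induced arrays, against 8.65, 8.24 and 8.29 in the controls. Replicate 1 was the highest of each group and the groups did not overlap, with a difference of -0.66 (SE 0.15, limma adjusted p = 0.0306). It lost its call in every fit with 1 array left out except that without control 1 (adjusted p = 0.0501 to 0.113), and when sex was a block (adjusted p = 0.0741). Fen1, the nuclease that trims the same fragments, read 8.60, 8.22 and 8.21 in the MSI2-induced arrays, against 8.29, 7.83 and 7.71 in the controls. Its mean lay the other way, by 0.40 (SE 0.19, adjusted p = 0.193), and it passed with the replicate block (adjusted p = 0.029) and without control 1 (adjusted p = 0.0364).

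Pcna, the sliding clamp and a common marker of proliferating cells, read 11.95, 11.61 and 11.75 in the MSI2-induced arrays, against 11.99, 11.24 and 11.32 in the controls. Control 1 was the highest array and the other controls the lowest, so the difference was 0.25 with it (SE 0.22, adjusted p = 0.49) and 0.49 without it (adjusted p = 0.0338). The probe set used lies, by its number, among those of chromosome 19 genes, although Pcna is on chromosome 2, and a second one among chromosome 2 genes gave 0.26. The clamp loader genes Rfc3 and Rfc4 differed by less than 0.01 in the means, and both overlapped between the groups.

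Of 4 nucleotide synthesis genes 1 fell, Tk1, where 9.65% of all genes fell, none rose, and the median was 0.08. Tk1, which encodes the thymidine kinase of the salvage pathway, read 7.55, 7.57 and 7.23 in the MSI2-induced arrays, against 8.58, 8.35 and 8.45 in the controls. The difference was -1.01 (SE 0.12, limma adjusted p = 0.00619), or 2.02-fold higher in control, and it passed in all 6 fits with 1 array left out. The probe set used for Tk1 lies, by its number, among probe sets of chromosome 8 genes, although Tk1 is on chromosome 11. A second, dimmer probe set among chromosome 11 genes also fell, by 1.22 on the log2 scale (limma adjusted p = 0.0106 over all probe sets). Rrm2, the small subunit of ribonucleotide reductase, read 9.67, 9.62 and 9.71 in the MSI2-induced arrays, against 9.64, 8.48 and 8.55 in the controls. The MSI2-induced arrays were nearly level and control 1 lay with them. The difference was 0.78 (SE 0.31, adjusted p = 0.137), and 1.16 without control 1 (adjusted p = 0.00176). The large subunit gene Rrm1 differed by 0.36 (SE 0.38, adjusted p = 0.579) and by 0.79 without control 1 (adjusted p = 0.0169). Thymidylate synthase, from Tyms, was at 8.995, 8.57 and 8.63 in the MSI2-induced arrays, against 9.28, 8.76 and 8.75 in the controls. It overlapped between the groups (difference -0.20, SE 0.19, adjusted p = 0.528).

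None of the 6 genes for chromatin assembly, histone messages and uracil repair passed, and their median was -0.02. Uhrf1, which carries DNA methylation through replication, read 7.82, 7.78 and 7.59 in the MSI2-induced arrays, against 8.998, 8.31 and 8.02 in the controls. It lay lower in all 3, by -0.71 (SE 0.25, adjusted p = 0.101), and passed with the replicate block (adjusted p = 0.0393). Hells, a chromatin remodeller, had the widest range over the 6 arrays of the 53 genes, at 6.89, 7.45 and 6.03 in the MSI2-induced arrays, against 8.46, 7.45 and 7.52 in the controls. MSI2-induced 2 reached the level of control 2, and the difference of -1.02 (SE 0.43) did not pass (adjusted p = 0.157). The chromatin assembly genes Chaf1a and Chaf1b differed by -0.06 and 0.26, the histone message gene Slbp by 0.41 and the uracil glycosylase gene Ung by 0.02.

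Taking away control 1 changed which genes passed on the high side, while the same genes passed on the low side. All 11 genes that passed with 6 arrays also passed without it. Rises numbered 9 in place of 1, the 8 added being Orc6, Mcm2, Mcm3, Mcm4, Pcna, Fen1, Rrm1 and Rrm2, where 13.4% of all genes rose in that fit. Falls stayed at 10, where 14.4% of all genes fell. Their differences were smaller without it, as for Ccnd1 (-0.42), Pold1 (-0.53) and Lig1 (-0.53), except those of E2f1 and Rb1. Lower means that did not pass also shrank, except those of E2f3 and Cdkn1b. Without control 1 they were -0.17 for Mcm10, -0.43 for Uhrf1, -0.69 for Hells and -0.52 for Pole. Pola1 was then at -0.60, Cdk4 at -0.24 and Rbl1 at -0.33. The median of the 53 genes was 0.05 without it. With the replicate number as a block, 4 rose (12.7% of all genes) and 15 fell (13.1%), adding Orc1, Mcm3 and Fen1 on the high side and Rbl1, Pola1, Pole, Mcm10 and Uhrf1 on the low side. Fen1 and Mcm3 were added by both. Orc6, Rrm2, Mcm2, Pcna, Mcm4 and Rrm1 did not pass with the block (limma adjusted p = 0.074 to 0.342). The fit without control 1 keeps MSI2-induced 1, and for the licensing genes both replicate 1 arrays lay high. Their median deviations from the gene means were 0.38 in MSI2-induced 1 and 0.28 in control 1. A left-out array also leaves fewer values for the spread. The plot of differences with and without control 1 shows these shifts gene by gene.

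**Figure D4:**
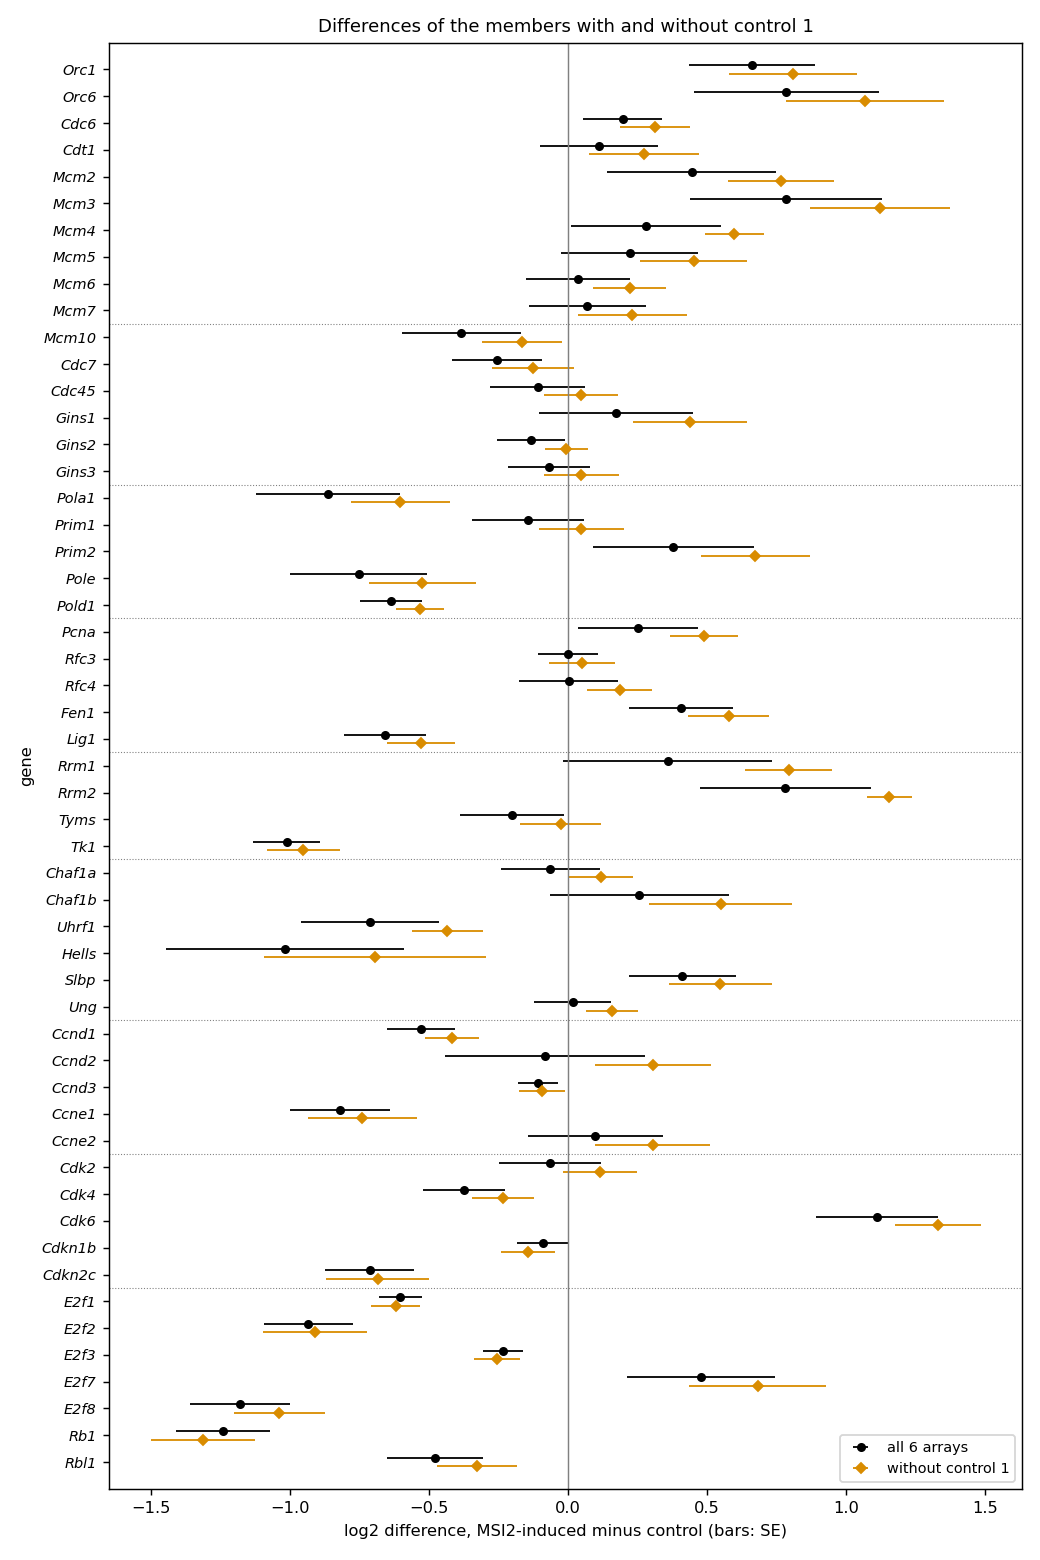
Log2 difference of each of the 53 genes, MSI2-induced minus control, with its SE, from all 6 arrays (black circles) and without control 1 (orange diamonds). All 10 licensing genes lie right of 0 in both, and for Rb1, E2f1, E2f8 and Tk1 the values with and without control 1 lie within each other's SE bars.

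Of 33 other replication factors, 3 fell (9.09%, where 9.65% of all genes fell) and none rose, with a median of -0.03. With the replicate block 7 fell (13.1% of all genes) and 3 rose (12.7%). Chtf18, of an alternative clamp loader, was at -0.61 (SE 0.10, limma adjusted p = 0.0151), the helicase gene Mcm9 at -0.60 (SE 0.14, adjusted p = 0.0357) and the clamp loader subunit gene Rfc2 at -0.43 (SE 0.10, adjusted p = 0.0369). Gmnn, which encodes the Cdt1 inhibitor geminin, differed by -0.06 and did not pass (adjusted p = 0.877). With 1 array left out the highest adjusted p was 0.0663 for Chtf18 without control 2, and 0.114 for Mcm9 and 0.116 for Rfc2 without MSI2-induced 3. Without control 1, 7 of the 33 rose (13.4% of all genes in that fit) and 2 fell (14.4%). Rfc2 was no longer among those that fell (adjusted p = 0.0519). Control 1 was the highest control for 29 of the 33 (87.9%, against 39.2% of all genes).

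Of 21 other regulators of the G1/S step, 4 rose (8.97% of all genes did) and 6 fell (9.65%), with a median of -0.02. With the replicate block 6 rose (12.7% of all genes) and 6 fell (13.1%). Of those that fell, Tfdp2, an E2F dimerization partner, read 8.77, 8.93 and 9.13 in the MSI2-induced arrays, against 9.86, 9.89 and 9.86 in the controls. Its controls were nearly level, and the difference was -0.93 (SE 0.10, limma adjusted p = 0.00532). Fzr1, an activator of the anaphase-promoting complex in G1, was at -1.02 (SE 0.13, limma adjusted p = 0.00746). Myb, a transcription factor of dividing progenitors, read 8.34, 8.49 and 7.87 in the MSI2-induced arrays, against 10.25, 9.66 and 9.74 in the controls. All its MSI2-induced values were more than 1 unit below the lowest control, for a difference of -1.65 (SE 0.22, limma adjusted p = 0.00803). Cdkn2b, which encodes the Cdk4 and Cdk6 inhibitor p15, was at -1.35 (SE 0.24, limma adjusted p = 0.0168). Tfdp2, Fzr1 and Myb passed in all 6 fits with 1 array left out, and Cdkn2b in 3 of the 6, at up to 0.0735 without MSI2-induced 3.

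The other 2 that fell and the 4 that rose are named after their values were seen. Rbl2, the pocket protein p130, was at -0.87 and E2f5, an E2F that works with pocket proteins, at -0.52 (limma adjusted p = 0.026 and 0.0494). On the high side were Cks1b, a CDK-binding subunit, at 1.35, the repressive E2f6 at 0.97, the Myb relative Mybl2 at 0.92 and Lin54, of the complex that Mybl2 joins, at 0.54 (limma adjusted p = 0.0258, 0.024, 0.0432 and 0.0412). Each of these 6 lost its call in at least 4 of the 6 fits with 1 array left out. Their highest adjusted p values there were 0.0995 for Rbl2, 0.159 for E2f5, 0.0967 for Cks1b, 0.0933 for E2f6, 0.144 for Mybl2 and 0.14 for Lin54, each without MSI2-induced 3, control 2 or control 3. E2f5 did not pass with the replicate block either (adjusted p = 0.0604). With Rb1 and Rbl2 lower and Rbl1 below the controls without passing, the 3 pocket protein genes all had lower means. Ccna2, which encodes the S phase cyclin A2, read 10.29, 10.21 and 9.78 in the MSI2-induced arrays, against 11.13, 10.46 and 10.54 in the controls. It lay lower in all 3 and did not pass (difference -0.62, SE 0.22, adjusted p = 0.104), except with the replicate block (adjusted p = 0.0351). Myc, named because earlier results of these data name it, encodes a factor that drives growth and G1/S genes. It read 11.93, 10.90 and 11.52 in the MSI2-induced arrays, against 10.23, 9.06 and 9.67 in the controls, and rose by 1.79 (SE 0.37, limma adjusted p = 0.0245, and up to 0.0947 with 1 array left out, without MSI2-induced 3).

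**Figure D5:**
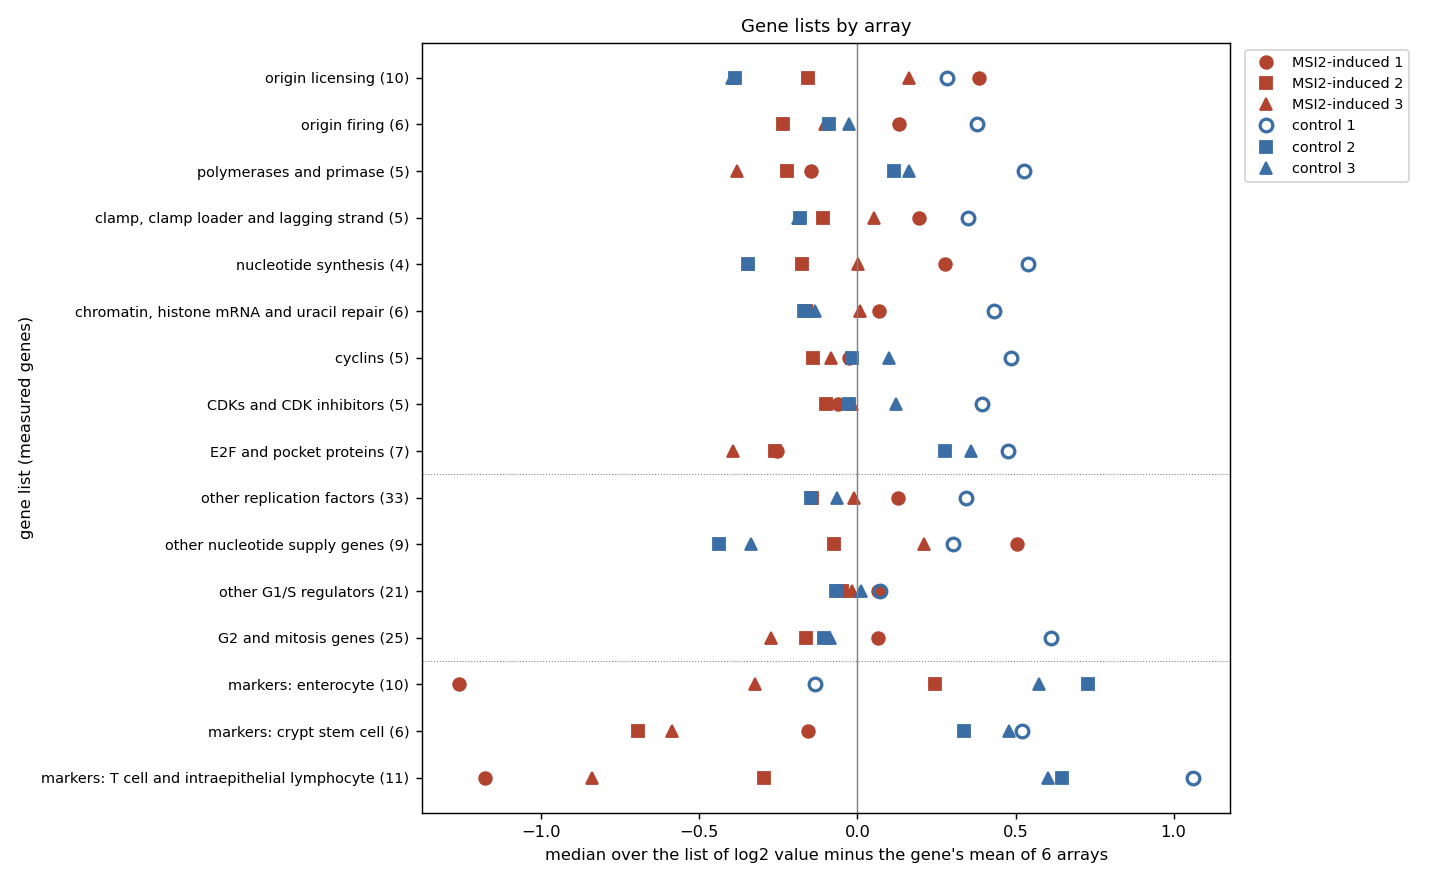
Median, over each gene list, of the log2 value minus the gene's mean of 6 arrays, for each array (red MSI2-induced 1 to 3, blue control 1 to 3, open circle control 1). The lists above the first dotted line are the 53 genes by role, those between the lines are other cell cycle genes, and those below are cell type markers. In the E2F and pocket protein row all 3 MSI2-induced arrays lie left of all controls, while in the licensing row control 1 lies between MSI2-induced 1 and 3.

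For each of the 11 genes that passed, an exact two-sided permutation test of the single gene gave p = 0.1, the smallest that 3 against 3 arrays allow. The MSI2-induced group held 1 female of 3 and the control group 2 of 3. When sex was a block, 7 of the 11 passed and none of the other 42 did.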

How the data were processed

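RNA of jejunal epithelial cells from 6 mice was read on Affymetrix Gene 1.0 ST arrays. Log2 values for each probe set, 1 column for every array, were deposited by the authors, who pooled nothing in them. Per the submitters' processing notes the tools were Partek and RMA, without versions, and for the genome build nothing is given in the sources used here. RMA normalizes between arrays, which removes a global shift in RNA amount and compresses small changes of dim genes. The array medians lay between 6.42 and 6.46.

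Of 28350 probe sets 21780 named 1 gene, 1618 several and 4952 none here. Gene identifiers of 21689 matched RefSeq (GRCm38.p6), which updated symbols. The probe set with the highest mean stood for each of 19933 genes, 996 of which had more than 1. Of the 53 genes, 48 were read by 1 probe set. The fit used limma 3.58.1 under R 4.3.3 with group alone in the model, lmFit followed by eBayes, two-sided tests and Benjamini-Hochberg adjustment over all genes. Standard errors are the moderated ones. On simulated data with 200 of 19933 genes changed, 83% of those changed by 1 log2 unit and 93% of those changed by 2 were recovered, with 11 false calls. The simulated noise was independent between genes, with no shift shared across an array such as that of control 1. These rates may therefore not hold for the real arrays.

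The 53 genes, the lists of other genes and the markers were chosen with earlier results of these data known. All 53 could be named. From each list of other pathway genes up to 4 with the lowest p among those that passed were named, with Ccna2, Myb, Gmnn, Mki67, Top2a, Cdk1, Msi1, Msi2 and Myc whatever their values. Cdkn1a and Ccnb1, also to be named, were not analysed here, and nor was a planned comparison of cyclin proteins. Lists are described by counts and medians with no test of the list.

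The groups share replicate numbers. Across genes, the arrays' deviations from their group means correlated by 0.52, 0.41 and 0.13 for numbers 1, 2 and 3, although control 3 correlated more with MSI2-induced 2 (0.32). No label says what a number shares. As every same-number correlation was above 0.1, the fit with the replicate number as a block is given beside a result where it changes a call. Sex was read from Xist and Y-linked genes. The alternatives were the block, sex as a block, averaging a gene's probe sets, filters on the mean, renewed quantile normalization or median centring, an intensity trend (plain or robust), weights for arrays, thresholds of 0.01 and 0.1, a fit over all probe sets, and each array left out.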

Additional observations from a re-analysis of the deposited data

How the results depend on the processing

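All 10 genes that fell and Cdk6 also passed, in the same direction, with the replicate block, without control 1, with the mean of all probe sets, with quantile normalization, with median centring, with array weights and over all probe sets. With the intensity trend 10 of the 11 passed and with sex as a block 7. With 1 array left out the number of the 53 that rose was 0 to 9 and the number that fell 4 to 10, the highest counts both without control 1. Rises numbered 4 with the replicate block, 9 with array weights, 0 with sex as a block, 0 at a threshold of 0.01 and 2 at 0.1, and falls 3 at 0.01. Over all genes, rises numbered 3630 with array weights, 1068 with sex as a block, 395 at 0.01 and 2729 at 0.1, and 476 to 2663 with 1 array left out. Falls numbered 3442 with array weights, 1091 with sex as a block and 406 at 0.01, and 476 to 2879 with 1 array left out. The causes were not tested, but a fit with an array left out holds fewer samples.

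The sign turned in 12 of the 53 genes, none of which passed in either setting. With quantile normalization the log2 difference of Mcm6 was -0.0092 and that of Rfc4 -0.027, and with median centring that of Rfc4 was -0.014. With array weights it was 0.031 for Cdc45, 0.058 for Gins3, 0.049 for Prim1, 0.075 for Rfc3, 0.095 for Chaf1a, 0.29 for Ccnd2, 0.10 for Cdk2 and, beside the 53, 0.12 for Gmnn. With sex as a block it was 0.040 for Rfc3 and 0.039 for Ccnd2. With 1 array left out it ran from -0.062 to 0.22 for Mcm6, -0.076 to 0.24 for Mcm7, -0.22 to 0.047 for Cdc45, -0.16 to 0.048 for Gins3, -0.26 to 0.047 for Prim1, -0.064 to 0.088 for Rfc3, -0.095 to 0.19 for Rfc4, -0.18 to 0.12 for Chaf1a and -0.097 to 0.16 for Ung. It ran from -0.32 to 0.31 for Ccnd2, -0.12 to 0.30 for Ccne2, -0.18 to 0.12 for Cdk2, -0.18 to 0.16 for Gmnn and -0.41 to 0.050 for Mki67. The cause was not tested.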

Other observations

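Genes of G2 and mitosis, which follow S phase, did not pass in either direction. Of 25 measured, none passed in limma, 0 were higher and 4 lower at an unadjusted p under 0.05, and the median log2 difference was -0.23. With the replicate block 2 rose (12.7% of all genes) and 5 fell (13.1%). Without control 1 the counts were 2 (13.4%) and 0 (14.4%), with a median of -0.05. Control 1 was the highest control for all 25 (39.2% of all genes), with a median excess of 0.76 over controls 2 and 3. Mki67, a common marker of proliferating cells, read 10.83, 10.35 and 10.34 in the MSI2-induced arrays, against 11.36, 10.46 and 10.45 in the controls. Leaving control 1 aside, its values overlapped between the groups. Top2a, the mitotic topoisomerase, read 9.36, 9.74 and 8.66 in the MSI2-induced arrays, against 11.04, 9.93 and 9.90 in the controls, and its difference of -1.04 (SE 0.40) did not pass (adjusted p = 0.129). Cdk1, the mitotic kinase, had a higher mean, at 11.53, 10.76 and 11.46 in the MSI2-induced arrays, against 11.22, 10.03 and 10.21 in the controls. Its difference of 0.76 had an adjusted p of 0.207, of 0.0445 when the replicate number was a block and of 0.0247 without control 1.

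Of 9 other nucleotide supply genes 1 rose (8.97% of all genes did) and 1 fell (9.65%), with a median difference of 0.52. Without control 1, 5 rose (13.4% of all genes) and 1 fell, and with the replicate block 3 rose (12.7%) and 1 fell. Rrm2b, the p53-responsive small subunit of ribonucleotide reductase, read 8.44, 7.86 and 8.39 in the MSI2-induced arrays, against 7.02, 7.01 and 7.14 in the controls. Control 1 lay with the other controls here, unlike for Rrm2 and Rrm1, and the difference was 1.17 (SE 0.17, limma adjusted p = 0.00923). Samhd1, which breaks deoxynucleotides down, read 9.11, 10.01 and 9.53 in the MSI2-induced arrays, against 10.37, 11.28 and 11.47 in the controls. Its groups did not overlap and control 1 was the lowest control, with a difference of -1.49 (SE 0.35, limma adjusted p = 0.0347). It passed in 2 of the 6 fits with an array left out, and the highest adjusted p there was 0.122, without control 2.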
